A study of Mus musculus with 20 samples.

Results

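Voltage-gated sodium and calcium channel genes, their auxiliary subunits and the potassium channel genes were described as one group of genes in mouse cortex. Members were the protein-coding genes whose symbol begins with Kcn, begins with Cacn, or is Scn with a number and a final a or b. Kcnj10, Kcnj13 and the genes of a stretch of chromosome 10 that holds Abca7 were left out by the rule, and a mean of at least 10 raw counts over the libraries was required. Of 43346 genes in the deposited table, 131 matched the names and 117 passed the count minimum, in 22 classes of channel. The other 14 were read too rarely: Kcnn4 (mean 8.75 counts) and Kcna10 (8.65) lay just under the minimum, and Kcnk16 had 0 counts in all 20 libraries. Kcne3 (12.35 counts) and Kcnrg (22.45) lay just above it. All 117 members also passed the low-count filter of the test.

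The animals all carried the 5xFAD+/- transgenes, a model in which human genes with familial Alzheimer's disease mutations are expressed from a neuronal promoter and amyloid is deposited, so no group was free of the transgenes. Control animals were Abca7WT/WT, and KI animals carried the Abca7 p.A693S substitution, in a gene for a lipid transporter. The protocol names heterozygous (Abca7WT/KI) and homozygous (Abca7KI/KI) knockins, and which of these a KI library holds is not labelled. Both genotypes were taken at 3 and at 10 months of age with 5 libraries a group, 20 in all, from cortex of littermates described as male. The labels do not state that each library came from its own animal, so p-values measure only the spread between libraries. In each genotype the comparison of ages covers amyloid build-up and ageing together, which cannot be told apart here.

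Voltage-gated channels open when the membrane potential changes. Sodium (Nav) channels carry the upstroke of the action potential, calcium (Cav) channels couple firing to transmitter release and dendritic signals, and potassium channels repolarise the cell and set its resting potential. In cortex most of these genes are known for their work in neurons, while a few potassium channels and a proton channel are known in microglia, the resident phagocytes of the brain.

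Library totals ran from 42896149 to 57447015 counts. Replicates differed by more than counting noise, with a chi-square per degree of freedom of 10.7 to 120 within groups. Features of several libraries bear on the channel genes. Markers of thalamus, which lies under the cortex, were summed to 267 to 478 CPM in KI libraries at 3 months, 223 to 378 in control at 3 months and 195 to 229 in all 10-month libraries, where CPM is the count scaled to a common library total. The defining thalamic gene Shox2 had 84 to 387 counts in each KI library at 3 months and 188 and 203 in control replicates 8 and 10, against 0 to 7 in the other 13 libraries. Markers of choroid plexus, the secretory tissue of the ventricles, varied within every group, from 318 to 3482 summed CPM. KI replicate 5 at 10 months had 54206 counts of Xist and 1 of the Y-linked Ddx3y, against 2 to 218 and at least 2382 elsewhere, which goes against the description of the animals as male. On the channel genes themselves, KI replicate 3 at 3 months and KI replicate 5 at 10 months lay farthest from the mean of their group mates, at a median of 0.32 and 0.27 per gene (log2 of CPM + 1, members with at least 1 CPM), against 0.08 to 0.18 for the other 18. Markers of neurons summed to 10675 to 12332 CPM over the 20 libraries.

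**Figure D1:**
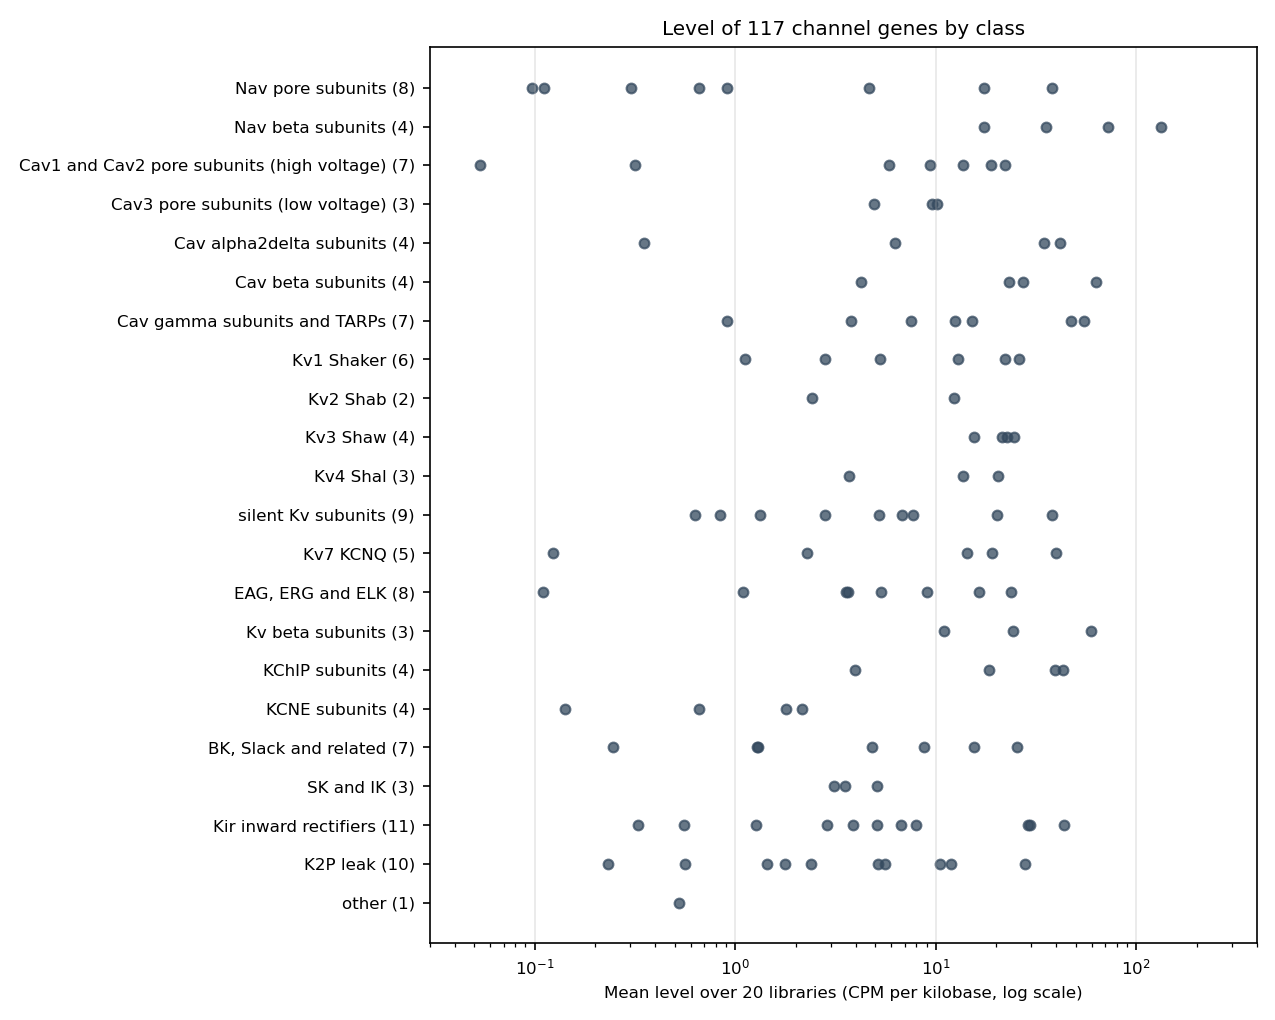
Mean level over 20 libraries of each of the 117 channel genes, in CPM per kilobase of gene on a log axis, by class with the number of members in parentheses. Each point is a gene, and levels within a class spread over orders of magnitude, as from 0.0535 to 22.2 among the high-voltage calcium channel pores.

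Levels were compared between genes per kilobase of the deposited gene length. The sodium channel beta subunits, which steer and modulate the pore, had the highest summed level of any class, with a mean of 258 CPM per kilobase over the libraries (range 224 to 282). Scn2b stood at 72.6 CPM per kilobase and Scn3b at 35.4. Among the sodium channel pores, Scn8a, the main pore of mature axon initial segments and nodes, stood at 37.8 and made up 61.0% of the summed level of its class (54.0% to 64.1% over libraries). Scn1a, known for its part in interneurons, stood at 17.5, and Scn3a, the pore known mainly from development, at 4.66. The pore gene of peripheral nerve Scn10a stood at 0.111. The table lists the further cortical pore gene under the older symbol Scn2a1, which the name rule does not take. The summed level of the class and the 61.0% for Scn8a therefore leave Scn2a1 out. Its level was 51.2 CPM per kilobase, above that of Scn8a, and with age it changed by -0.18 ± 0.10 in control and -0.23 ± 0.10 in KI (log2, SE, adjusted p = 0.497 and 0.211).

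Among the calcium channel pores that open at high voltage, Cacna1e, which carries R-type current, was highest at 22.2 CPM per kilobase, followed by the N-type pore Cacna1b at 19.0 and the P/Q-type pore Cacna1a at 13.7. The L-type pores of muscle and retina, Cacna1s and Cacna1f, stood at 0.317 and 0.0535. Of the low-voltage T-type pores, Cacna1i (10.2) and Cacna1g (9.57) lay close together and above Cacna1h (4.92). Cacnb3 led the beta subunits at 63.1, and Cacna2d1, the receptor of gabapentin-type drugs, led the alpha2delta subunits at 41.5. Cacng7 (54.7) and Cacng3 (47.1) led the gamma subunits, most of which are known as partners of AMPA receptors.

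Among potassium channels, the inward rectifiers had a summed level of 131 CPM per kilobase, led by Kcnj9 at 43.8 and Kcnj3 at 29.6, which form the channel opened by G-protein-coupled receptors. Kcnf1, a silent subunit that makes no channel alone and modifies Kv2 pores, stood at 38.0, above the Kv2 pore Kcnb2 at 2.42. Kcnab2 (59.8) led the cytoplasmic Kv beta subunits, and Kcnip3 (43.2) and Kcnip2 (39.4) led the KChIP subunits, the calcium sensors of Kv4 channels. The 4 Kv3 pores of fast-spiking cells were near one another, at 15.5 to 24.6. Among leak channels Kcnk1 stood at 27.8, while the members that passed the test with age were far lower, with Kcnk9 at 12.0, Kcnk10 at 1.77 and Kcnk6 at 1.44.

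Channel genes as a group lay a little lower at 10 than at 3 months in both genotypes. The comparison of ages asks how the channel genes move as amyloid accumulates. In control animals 97 of 117 members (82.9%) had a log2 difference below 0, with a median of -0.13, against 51.0% of all 19623 genes tested and a median of -0.00. In KI animals 86 members (73.5%) lay below 0, with a median of -0.11, against 50.7% of all genes. Markers of astrocytes moved the other way with age: their score (mean of log2 CPM centred per gene, 11 genes) ran from -0.23 to -0.10 in the 3-month libraries and from 0.02 to 0.29 in the 10-month libraries. Of the 11, 9 lay above 0 in control and 10 in KI, with 3 called higher in each. Microglial markers rose more, with medians of 1.58 in control and 1.71 in KI. All 14 thalamic markers lay below 0 in both genotypes (medians -0.46 and -0.92), as did 11 of 12 striatal markers (-0.26 and -0.23). Of 10 hippocampal markers, 9 lay below 0 in control and 7 in KI. All 10 oligodendrocyte markers lay below 0 in control and 5 in KI. The part of these lists in the differences of the channel genes was not tested. Most of the channel gene differences were small and did not pass the test. In control 2 members were called by edgeR's quasi-likelihood test at a Benjamini-Hochberg adjusted p under 0.05, 1 in each direction, while 4.07% of all genes were called (3.72% higher and 0.357% lower). At an unadjusted p under 0.05 there were 25 (13.6% of all genes), of which 23 were lower (4.11% of all genes). In KI 12 members (10.3%) were called, while 8.06% of all genes were. Of these 12, 10 were lower, which is 8.55% of the members against 2.41% of all genes, and 2 were higher, where 5.66% of all genes were. At an unadjusted p under 0.05 there were 32 (21.2% of all genes), of which 26 were lower (8.97% of all genes). Of the libraries that stood apart, leaving out KI replicate 5 at 10 months gave 13 called members and leaving out KI replicate 3 at 3 months gave 17. The share of all genes called in these fits was not counted.

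The comparisons in control and in KI share no library. Of the 117 members, 79 were below 0 in both, 13 above 0 in both and 25 had opposite signs, and the differences correlated across genes at r = 0.28. Genes are not independent replicates, and libraries of both genotypes at 3 months hold thalamic transcripts, so this is a description. All 12 members called in KI had the same sign in control.

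**Figure D2:**
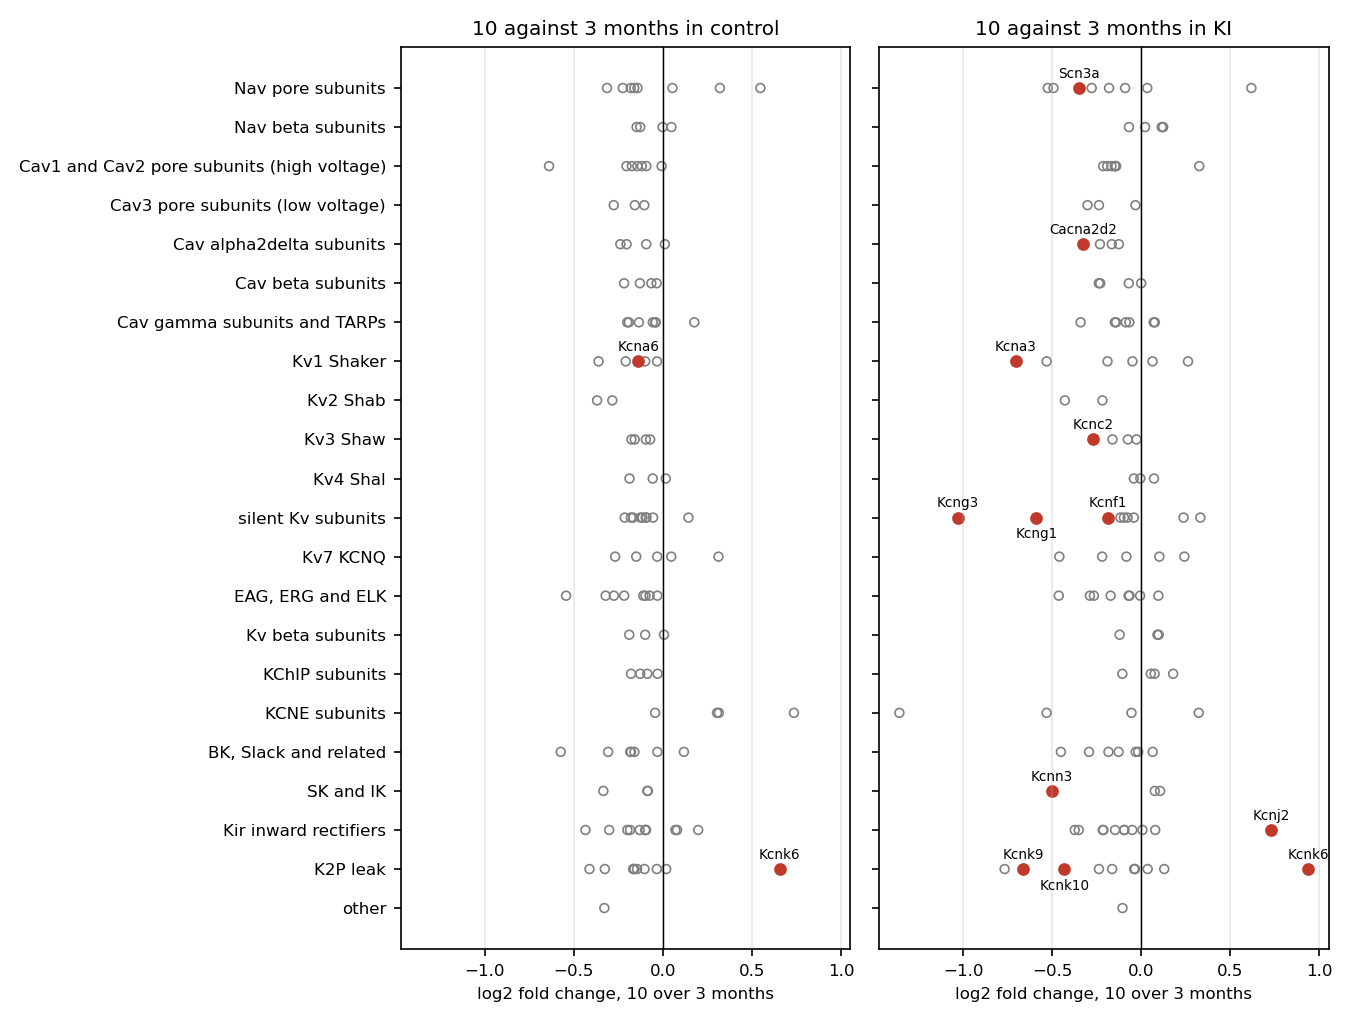
Log2 fold change from 3 to 10 months of each channel gene, by class, in control (left) and KI (right), with 5 libraries a group. Filled and named points passed an adjusted p of 0.05, open points did not: 2 are filled in control and 12 in KI, and most points lie left of 0.

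Kcnk6 was the 1 member called higher with age in both genotypes. It encodes TWIK2, a leak channel known as a path of potassium efflux in macrophages. The gene (ENSMUSG00000046410, chromosome 7, 29221928 to 29232522, mm10) stood at 4.73, 3.71, 4.38, 4.98 and 3.52 CPM in the control libraries at 3 months and at 6.24, 5.88, 6.56, 7.48 and 7.45 at 10 months. In KI it stood at 4.61, 4.27, 4.31, 4.17 and 4.16 CPM at 3 months and at 8.67, 7.40, 8.66, 7.23 and 9.27 at 10 months. Every 10-month library lay above every 3-month library of its genotype. The rise was 0.66 ± 0.11 in control (log2, SE, adjusted p = 0.000369), which is 1.58-fold, and 0.94 ± 0.11 in KI (adjusted p = 2.71e-06), which is 1.92-fold. Both calls held when any 1 library was left out, with 0.59 to 0.71 in control and 0.88 to 0.98 in KI.

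Hvcn1, the voltage-gated proton channel of phagocytes, is no member by name and was the most changed of the 52 channel partner genes tested. It stood at 2.43, 2.33, 1.73, 2.17 and 1.65 CPM in control at 3 months and at 5.18, 5.88, 7.66, 7.29 and 8.16 at 10 months. In KI it stood at 1.47, 2.01, 1.95, 1.79 and 2.49 CPM at 3 months and at 7.89, 6.77, 8.75, 10.5 and 8.86 at 10 months. The ages did not overlap in either genotype, with a rise of 1.73 ± 0.16 in control (log2, SE, adjusted p = 2.81e-07) and 2.13 ± 0.16 in KI (adjusted p = 1.12e-08). Microglial markers moved with both genes. Of 15 listed, 13 were called higher with age in each genotype, and their summed level ran from 382 to 488 CPM at 3 months and from 953 to 1575 at 10 months. Their part in the rise of Kcnk6 and Hvcn1 was not tested, and in bulk cortex more cells of a type and more RNA per cell cannot be told apart.

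Not every channel known in microglia rose. Of a list of 7 such genes, all tested, 2 were called higher in control (Kcnk6 and Hvcn1), where 3.72% of all genes were. In KI 3 were called higher (these and Kcnj2) and 1 lower (Kcna3), where 5.66% of all genes were called higher and 2.41% lower. Kcnk13, the leak channel THIK-1 that sustains microglial surveillance, differed by -0.17 ± 0.10 in control and 0.13 ± 0.10 in KI (adjusted p = 0.537 and 0.502). The list also holds Kcnab2, which encodes a cytoplasmic Kv beta subunit and no channel. Kcnab2 had a mean of 333 CPM, against 7.45 for Kcnk13, and which cells its reads came from was not tested. It differed by 0.01 ± 0.14 and 0.10 ± 0.14. The first of these falls below 0 when library totals are scaled by relative log expression (RLE).

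Kcnj2 rose with age in KI libraries and did not pass the test in control. It encodes Kir2.1, an inward rectifier that holds cells near the potassium equilibrium potential. The gene (ENSMUSG00000041695, chromosome 11, 111066164 to 111076821, mm10) stood at 23.5, 19.3, 17.3, 19.6 and 23.2 CPM in KI at 3 months and at 30.7, 35.0, 40.2, 31.8 and 32.9 at 10 months. The control libraries stood at 27.2, 26.7, 25.1, 23.7 and 35.3 CPM at 3 months and at 29.7, 28.6, 25.2, 30.1 and 31.2 at 10 months. The KI ages did not overlap, while the control ages did. The difference was 0.73 ± 0.11 in KI (log2, SE, adjusted p = 8.26e-05), or 1.66-fold, and 0.07 ± 0.11 in control (adjusted p = 0.883). The test of the difference between these, given with the interaction, did not pass.

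The 10 members called lower with age in KI came from 7 classes: a sodium pore (Scn3a), a calcium channel alpha2delta subunit (Cacna2d2), a Kv1 pore (Kcna3), a Kv3 pore (Kcnc2), 3 silent Kv subunits (Kcng3, Kcng1 and Kcnf1), a small-conductance calcium-activated channel (Kcnn3) and 2 leak channels (Kcnk9 and Kcnk10). None of the 10 was called in control, and the interaction test called no member.

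Kcng3, a silent subunit that joins Kv2 channels, had the largest fall. The gene (ENSMUSG00000045053, chromosome 17, 83585957 to 83631895, mm10) stood at 3.85, 3.08, 2.08, 2.40 and 1.50 CPM in KI at 3 months and at 0.746, 1.11, 1.35, 1.44 and 1.64 at 10 months. Control libraries stood at 2.91, 2.01, 2.36, 2.57 and 2.10 CPM at 3 months and at 2.97, 2.88, 1.61, 1.70 and 2.06 at 10 months. The KI ages overlapped only through 1.50 at 3 months, and the control ages overlapped widely. It fell by 1.03 on the log2 scale in KI (SE 0.24, adjusted p = 0.00984), a fold of 0.490, and differed by -0.10 ± 0.24 in control (adjusted p = 0.936). It is also among the rarest of the named genes, with a mean of 105 raw counts.

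Kcna3 encodes Kv1.3, a potassium channel of lymphocytes, microglia and some neurons. The gene (ENSMUSG00000047959, chromosome 3, 107036162 to 107038129, mm10) stood at 6.55, 7.35, 5.97, 5.83 and 5.22 CPM in KI at 3 months and at 3.04, 2.99, 3.30, 3.70 and 5.94 at 10 months. Replicate 7 at 10 months lay among the 3-month libraries and the other 4 lay below them all. It fell by 0.70 in KI (log2, SE 0.17, adjusted p = 0.0110), and without replicate 7 at 10 months by 0.94. In control it stood at 7.34, 6.88, 7.12, 6.27 and 4.80 CPM at 3 months and at 6.66, 5.65, 5.59, 4.47 and 5.70 at 10 months, a difference of -0.21 ± 0.17 (adjusted p = 0.706).

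Promoter sequence is shown for Kcnj2, called higher with age in KI, and for Kcng3 and Kcna3, the largest 2 called falls in KI, so that the start regions can be read beside their values. Kcnk6, which rose more than Kcnj2, was not matched. Sequences are the 250 bases before the RefSeq start on the gene's strand (GRCm38.p6), 5′ to 3′. RefSeq entries were matched by symbol for 85 of 117 members. Capitals mark GGGCGG, the GC box known as a site of Sp1-type factors, or GAGGAAG, a core bound by the myeloid factor PU.1, each on either strand; the motifs do not overlap.
Kcnj2 (chr11:111065914-111066163, + strand): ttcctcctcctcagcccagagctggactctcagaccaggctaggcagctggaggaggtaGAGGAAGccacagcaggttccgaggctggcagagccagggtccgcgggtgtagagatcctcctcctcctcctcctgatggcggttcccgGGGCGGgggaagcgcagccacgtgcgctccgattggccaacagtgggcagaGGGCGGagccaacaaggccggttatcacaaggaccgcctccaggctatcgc
Kcng3 (chr17:83631896-83632145, - strand): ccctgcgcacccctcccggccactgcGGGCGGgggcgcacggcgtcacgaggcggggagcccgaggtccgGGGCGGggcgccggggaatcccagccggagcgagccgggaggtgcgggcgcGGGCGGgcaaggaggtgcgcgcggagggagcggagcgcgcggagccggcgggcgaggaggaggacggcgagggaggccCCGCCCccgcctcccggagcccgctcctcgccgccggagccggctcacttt
Kcna3 (chr3:107035912-107036161, + strand): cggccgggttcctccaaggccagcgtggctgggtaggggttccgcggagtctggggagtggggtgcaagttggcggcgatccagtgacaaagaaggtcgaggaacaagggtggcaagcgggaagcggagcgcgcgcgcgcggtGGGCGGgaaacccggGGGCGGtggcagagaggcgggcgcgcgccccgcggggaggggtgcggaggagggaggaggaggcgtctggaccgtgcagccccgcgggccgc
The Kcnj2 window held 65.6% G and C, 14 CpG pairs, 2 GC boxes and 1 GAGGAAG. The Kcng3 window held 82.4% G and C, 41 CpG pairs and 4 GC boxes, and the Kcna3 window 74.4%, 31 and 2. Over 32851 windows of this length in the table the median was 52.4% G and C and 6 CpG pairs, 32.7% held a GC box and 10.6% a GAGGAAG. Over the 120 windows of members the median was 58.6% and 8, and the shares were 44.2% and 6.67%. A match of letters is a description and not a bound site.

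Kcnk9 encodes TASK-3, an acid-sensitive leak channel. It stood at 14.2, 18.2, 17.2, 19.5 and 13.2 CPM in KI at 3 months and at 9.20, 8.81, 7.78, 12.6 and 13.4 at 10 months. It fell by 0.66 (log2, SE 0.15, adjusted p = 0.00620), with 1 library of each age overlapping. In control the means were 17.3 ± 3.09 and 13.8 ± 0.401 CPM (SD, n = 5), a difference of -0.33 ± 0.15 (adjusted p = 0.317).

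Kcng1, another silent subunit, stood at 31.7, 38.7, 42.9, 40.8 and 44.8 CPM in KI at 3 months and at 28.7, 26.3, 29.9, 20.7 and 26.7 at 10 months. The ages did not overlap, and it fell by 0.59 (log2, SE 0.13, adjusted p = 0.00471), against -0.11 ± 0.13 in control (adjusted p = 0.823). Kcnn3, the SK3 channel that shapes the after-hyperpolarisation, stood at 26.5 to 33.7 CPM in KI at 3 months and at 17.0 to 24.3 at 10 months, again without overlap. It fell by 0.50 in KI (log2, SE 0.10, adjusted p = 0.00246). In control its means were 30.6 ± 3.53 and 24.3 ± 2.35 CPM (SD, n = 5), a difference of -0.33 ± 0.10 (adjusted p = 0.0688). Kcnk10, the stretch-sensitive leak channel TREK-2, stood at 4.38 to 5.46 CPM in KI at 3 months and at 3.28 to 4.15 at 10 months. These did not overlap, and it fell by 0.43 (log2, SE 0.10, adjusted p = 0.0107). In control its medians were 5.00 CPM at 3 months and 4.66 at 10 months.

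The remaining 4 called falls were small. Kcnc2, the Kv3.2 pore of fast-spiking interneurons and thalamic relay cells, had means of 150 ± 14.7 and 124 ± 7.19 CPM in KI (SD, n = 5) and fell by 0.27 (log2, SE 0.07, adjusted p = 0.0201). Scn3a had means of 61.9 ± 11.3 and 48.6 ± 6.76 CPM (SD, n = 5) and fell by 0.35 (SE 0.11, adjusted p = 0.0487). Cacna2d2 fell by 0.32 (SE 0.09, adjusted p = 0.0362) and Kcnf1 by 0.19 (SE 0.06, adjusted p = 0.0446). In control the medians at 3 and 10 months were 53.6 and 45.6 CPM for Cacna2d2 and 189 and 172 for Kcnf1. They were 63.9 and 57.2 for Scn3a and 128 and 129 for Kcnc2. The KI ages overlapped in each of these 4. Each lost its call in 3 to 8 of the 10 fits that left out 1 library, and the other 8 called genes kept theirs in all 10. The highest adjusted p without 1 library ran from 0.0686 for Kcnc2 to 0.135 for Scn3a.

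**Figure D3:**
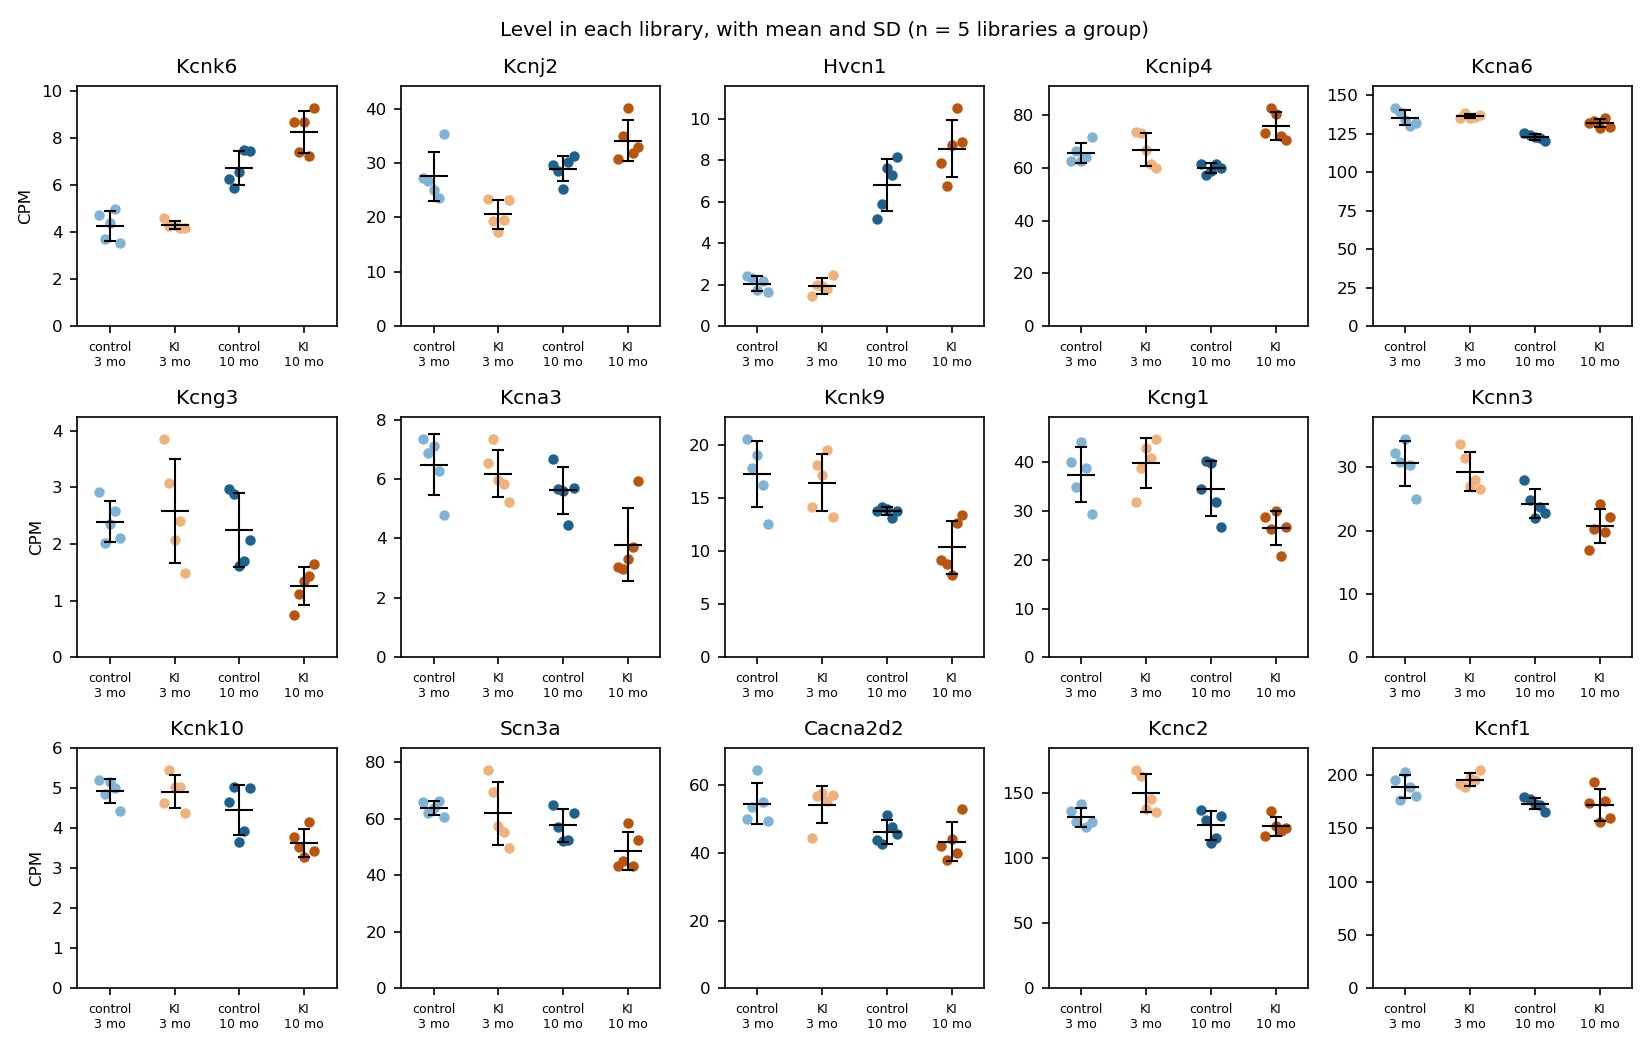
CPM of 14 channel genes and of Hvcn1 in every library, by group, with the mean and SD (n = 5). Kcnk6 and Hvcn1 lie higher at 10 months in both genotypes, Kcnj2 lies higher at 10 months in KI, and Kcng3 is lowest in KI at 10 months.

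Thalamic transcripts moved with the falls in KI. Of 14 thalamic markers tested, 11 were called lower with age in KI and 1 in control, and all 14 lay below 0 in both. Other lists also lay lower with age in KI. All 12 choroid plexus markers (median -1.05) and all 10 of smooth muscle and meninges (-0.46) were below 0, with 0 called. Of 17 immediate-early genes, which are activity-dependent, 14 lay below 0 and 3 above, with 4 called lower. The part of these other lists in the falls was not tested. With the thalamic score of each library as a covariate, 2 members were called with age in KI (Kcnk6 and Kcnj2) and 0 were called lower. Under that fit every one of the 12 kept its sign and the standard errors grew. Kcnj2 moved from 0.73 to 0.93 (SE 0.18, adjusted p = 0.00643) and Kcnk6 from 0.94 to 0.79 (SE 0.18, adjusted p = 0.0284). Kcnk9 moved from -0.66 to -0.87 (SE 0.24, adjusted p = 0.0948) and Cacna2d2 from -0.32 to -0.24 (SE 0.16, adjusted p = 0.706). Kcng3 was -1.05 ± 0.42 (adjusted p = 0.352), Kcna3 -0.82 ± 0.29 (0.258), Kcng1 -0.61 ± 0.21 (0.259) and Kcnn3 -0.50 ± 0.17 (0.254). Kcnc2 moved the most of the falls in proportion, from -0.27 to -0.17. All 5 KI libraries at 3 months had a score above 0 and all 5 at 10 months a score below, so thalamic tissue and age cannot be told apart in KI from these libraries. The fit with only the 10 KI libraries called 7 members. The share of all genes called was not counted for this fit or for the one with the score.

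**Figure D4:**
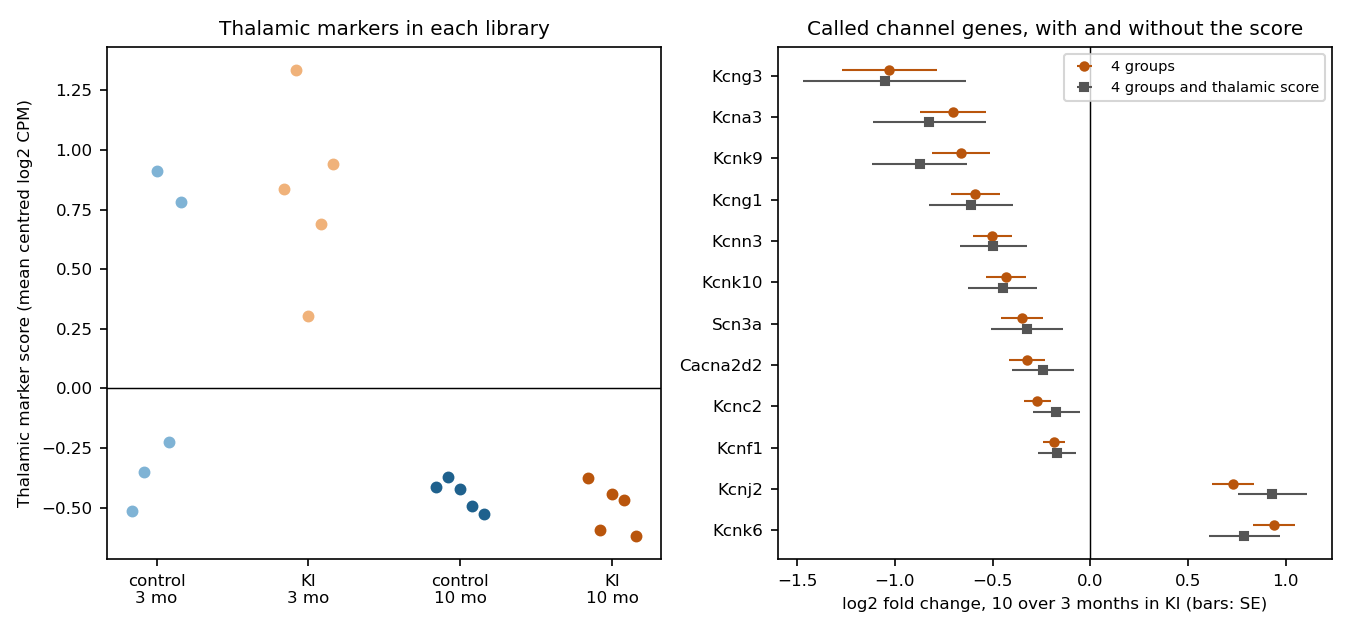
Left, thalamic marker score of each library (mean of log2 CPM centred per gene) by group: KI at 3 months runs from 0.30 to 1.33 and all 10-month libraries lie below 0. Right, log2 fold change with age in KI of the 12 called members, with SE bars, without and with that score as a covariate; estimates stay on their side of 0 and the bars widen.

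In control the 1 member called lower with age was Kcna6, the Kv1.6 pore. It stood at 142, 139, 134, 130 and 132 CPM at 3 months and at 125, 124, 123, 122 and 120 at 10 months. The ages did not overlap, though the fall was only 0.14 (log2, SE 0.04, adjusted p = 0.0469), and the call was lost in 8 of the 10 fits that left out 1 library (adjusted p up to 0.155). In KI it differed by -0.05 ± 0.04 (adjusted p = 0.510). Next in order were Cacna1b, at -0.20 ± 0.06 (adjusted p = 0.0520) and Kcnn3. Cacna1b ran from 194 to 222 CPM at 3 months and from 170 to 187 at 10 months in control, without overlap. Without control replicates 8 and 10 at 3 months, which carry thalamic transcripts, 1 member was called in control.

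By class, untested as classes, most medians with age lay below 0 in both genotypes. All 7 high-voltage calcium pores were below 0 in control and 6 of 7 in KI, with medians of -0.14 and -0.15. All 3 T-type pores, all 4 calcium channel beta subunits and all 4 Kv3 pores were below 0 in both genotypes. The 8 EAG, ERG and ELK pores, which repolarise slowly, had 8 below 0 in control and 7 in KI, with medians of -0.16 and -0.12. The 9 silent subunits had 8 and 7, with medians of -0.11 and -0.10. The sodium channel pores had 5 and 6 of 8 below 0, the Kv1 pores 6 and 4 of 6, and the Kv4 pores 2 of 3 in each. The Kv7 pores had 3 of 5 in each, the inward rectifiers 8 of 11 in each, and the leak channels 8 and 7 of 10. In 5 classes the median changed sign between genotypes. The SK channels, which are pores, had medians of -0.09 in control and 0.08 in KI, with 3 of 3 and 1 of 3 below 0. The KChIP subunits had medians of -0.11 and 0.06, the Kv beta subunits -0.10 and 0.09, and the sodium channel beta subunits -0.06 and 0.07. The KCNE subunits, which hold the variable Kcne2, went the other way, at 0.31 and -0.29.

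Channel partner genes, a list of scaffolds, auxiliary proteins and related channels, lay mostly below 0 as well, 40 of 52 in control and 42 of 52 in KI. In KI 6 were called lower, where 2.41% of all genes were. Among them were the pacemaker channel Hcn4 (-0.74 ± 0.16, adjusted p = 0.00616), Cntnap2, which clusters Kv1 channels along the axon (-0.39 ± 0.09, adjusted p = 0.00638), and Dpp6, an auxiliary subunit of Kv4 channels (-0.20 ± 0.04, adjusted p = 0.00550). They also held the spectrin gene Sptbn1 (-0.22 ± 0.06, adjusted p = 0.0432) and Unc79 of the sodium leak channel complex (-0.19 ± 0.05, adjusted p = 0.0356). In control Hcn4 differed by -0.56 ± 0.16 (adjusted p = 0.0607) and Cntnap2 by -0.21 ± 0.09 (adjusted p = 0.267). Of neuron markers, 0 of 12 were called lower in either genotype and 1 was called higher in KI. Of these, 6 lay below 0 in control and 4 in KI. Of 12 excitatory neuron markers, 11 lay below 0 in control (median -0.08) and 8 in KI (-0.03), with 0 called. Of interneuron markers, 3 of 12 were called lower in KI and 0 in control. Below 0 were 10 of the 12 in control (median -0.11) and 7 in KI (-0.12). The part of neuronal markers in the channel gene differences was not tested.

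No channel gene differed between KI and control at either age at an adjusted p under 0.05. This comparison asks whether the Abca7 substitution changes the channel genes on the amyloid background. At 3 months 0 of 117 members were called by edgeR, while 0.0255% of all genes were, and 7 members had an unadjusted p under 0.05 (3.80% of all genes). The median difference was -0.05. At 10 months 0 were called (0.0612% of all genes), 13 had an unadjusted p under 0.05 (7.86% of all genes) and the median was -0.01. Averaged over both ages 0 were called (0.0764% of all genes), with 9 at an unadjusted p under 0.05 (6.52% of all genes). DESeq2 called 0, 1 and 1 members in these 3 comparisons, and its share over all genes was not counted. The 95% interval lay within 0.5 of 0 on the log2 scale for 87 members at 3 months, 87 at 10 months and 101 in the average, and reached past 0.5 for the others.

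The closest to a call was Kcnip4, the calcium-sensing KChIP4 subunit of Kv4 channels. The gene (ENSMUSG00000029088, chromosome 5, 48389502 to 49524904, mm10) stood at 61.5, 57.5, 59.0, 61.6 and 60.0 CPM in control at 10 months and at 73.3, 82.7, 80.4, 72.1 and 70.4 in KI. All 5 KI libraries lay above all 5 control libraries. The difference was 0.34 ± 0.07 (log2, SE, 95% interval 0.20 to 0.48, adjusted p = 0.0593), or 1.26-fold. It passed with a filter at a mean of 1 CPM (adjusted p = 0.0451), with DESeq2 (0.00127), with limma-voom using library quality weights (0.0122) and with 1 surrogate variable (0.00356). It did not pass without a low-count filter (0.170) or in a fit of only the compared groups (0.236). It also did not pass when any 1 library was left out (0.0779 to 0.321), with estimates of 0.30 to 0.36. Nor did it pass with RLE scaling, with the replicate numbers as a block, or with the choroid plexus or thalamic score. Under the alternatives, 5 settings called it, including the threshold of 0.10, and 17 did not. At 3 months the means were 65.5 ± 3.80 and 66.9 ± 6.37 CPM (SD, n = 5) and differed by 0.03 ± 0.07. Of 14 thalamic markers, 8 lay above 0 in KI against control at 10 months, with a median of 0.01. Kcnip4 differed by 0.34 with the thalamic score in the fit and was not called. Other lists leaned to 1 side, with 0 called in each. All 12 choroid plexus markers (median -0.89) and all 17 immediate-early genes (-0.17) lay below 0. All 10 oligodendrocyte markers (0.15) and all 15 microglial markers (0.13) lay above 0. Their part in the difference of Kcnip4 was not tested.

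The next 4 members by p at 10 months were lower in KI, and none was called. Kcng3 differed by -0.83 ± 0.24 (log2, SE, adjusted p = 0.372), Kcna3 by -0.56 ± 0.17 (0.382), Kcng1 by -0.38 ± 0.13 (0.439) and Kcnk10 by -0.29 ± 0.10 (0.460). Without KI replicate 7 at 10 months, Kcna3 was called, at -0.79 (adjusted p = 0.0328), and limma-voom called Kcng3 at -1.07 (adjusted p = 0.0489). These 4 genes are also among the falls with age in KI, and both comparisons use the same KI libraries at 10 months.

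At 3 months Kcnj2 had the smallest p. Its KI libraries, at 17.3 to 23.5 CPM, lay below its control libraries, at 23.7 to 35.3, without overlap, and differed by -0.42 ± 0.11 (log2, SE, adjusted p = 0.713). Kcnc2 differed by 0.19 ± 0.07. Kcna5 differed by -0.38 ± 0.15 and Kcnrg, a regulator named for potassium channels, by -0.45 ± 0.19. These 3 had adjusted p-values of 1.00. Kcna5 lies within an annotated overlap with the far more abundant Kcna1, and Kcnrg with Dleu2, and the strand setting of the counting is not known, so reads of these pairs cannot be told apart. Thalamic markers were above 0 in KI for all 14 tested at 3 months, with a median of 0.42 and 0 called. Other lists also leaned to 1 side, with 0 called in each. All 12 choroid plexus markers (median 0.88), all 17 immediate-early genes (0.57) and all 10 of smooth muscle and meninges (0.39) lay above 0. All 5 erythrocyte markers tested lay below 0 (-0.81). The part of these lists in the differences of the channel genes at 3 months was not tested.

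The interaction of genotype and age, which asks whether the age difference itself differs between genotypes, called 0 of 117 members, 0 by DESeq2 and 0.00% of all genes, with 7 members at an unadjusted p under 0.05 (4.50% of all genes). The smallest p was that of Kcnj2, at 0.66 ± 0.15 (log2, SE, adjusted p = 0.564). Kcnip4 followed at 0.31 ± 0.09 (0.876), Kcnip1, another KChIP subunit, at 0.25 ± 0.09, Kcng3 at -0.93 ± 0.34 and Kcng1 at -0.47 ± 0.18 (each 0.999). The 95% interval lay within 0.5 of 0 for 66 members.

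One member was set apart by its spread. Kcne2, an accessory subunit abundant in choroid plexus epithelium, varied by 97.9% within groups (coefficient of variation, root mean square over the groups), against a median of 13.4% over the 109 members with at least 1 CPM. Its raw counts were 15, 86, 219, 247 and 108 in control and 415, 20, 536, 16 and 349 in KI at 3 months, then 540, 161, 391, 17 and 62 in control and 171, 25, 15, 11 and 343 in KI at 10 months. Libraries with few Kcne2 counts were those with few counts of the choroid plexus gene Ttr in every group: the 7 libraries with at most 25 counts of Kcne2 had 761 to 2493 of Ttr, and the other 13 had at least 6832. Its differences between ages and between genotypes, from -1.36 to 0.93 on the log2 scale, had standard errors of about 1, and no comparison called it.

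**Figure D5:**
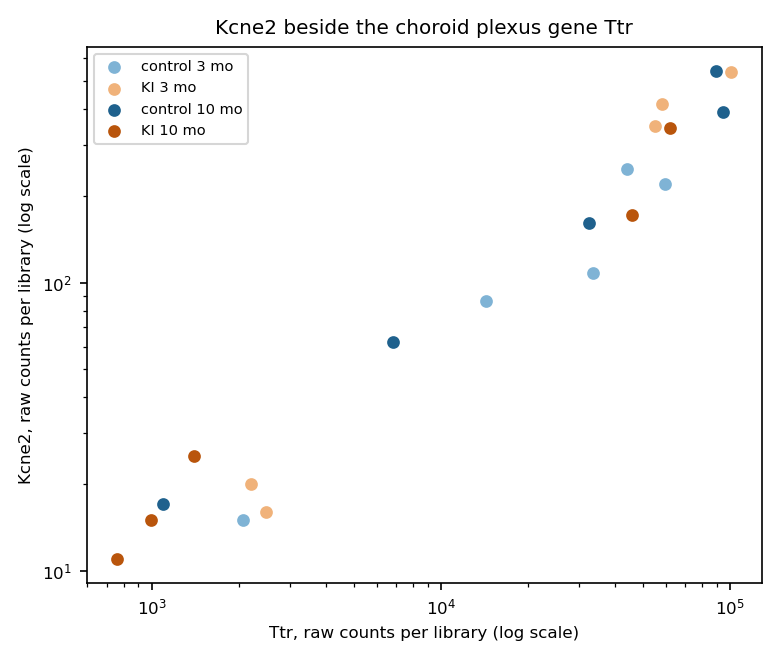
Raw counts of Kcne2 against raw counts of Ttr in each of the 20 libraries, coloured by group, both axes on a log scale. Libraries of every group lie at both ends, from 11 Kcne2 counts beside 761 of Ttr to 540 beside 89532.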

How the data were processed

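The values used are raw gene counts, deposited by the authors in 1 table that covers the 20 libraries and lists coordinates, lengths, symbols and biotypes, per the file headers. Reads were placed on mm10, per the submitters' processing notes, while the aligner, the counter, its strand setting and the annotation release are not given in the sources used here. Of the members, 52 overlap another gene, and in 13 that gene has at least 10 percent of their counts, so the levels of these 13 may hold reads of a neighbour.

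The test was run in edgeR 4.0.16 (R 4.3.3): filterByExpr, TMM scaling, a robust quasi-likelihood F test on 4 groups (16 residual degrees of freedom), 6 contrasts, and Benjamini-Hochberg adjustment over 19623 genes with calls at 0.05. CPM uses the scaled totals, and levels per kilobase divide by the deposited length. A marker score averages log2 CPM over a list after each gene is centred (prior count 2). The fit was checked on simulated data. Alternatives used DESeq2 1.42.0, limma 3.58.1, sva 3.50.0, other filters and scaling, covariates, a replicate block, and leaving out each library. Every limma-voom fit used library quality weights.

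Members, classes and lists were chosen with earlier results of these data known. Named were up to 12 called members in each direction per contrast with a mean of at least 1 CPM (the 5 of smallest p where under 5 were called), highly expressed members of each class, called partner genes, and the genes nearest to the count minimum. Other members were named in the class descriptions after their values were seen. Some named items are not reported here. The numbers in the titles pair no libraries, since 3 of 18 same-number pairs correlated above 0.1.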

Additional observations from a re-analysis of the deposited data

Results flagged for a closer look

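Among 38 members in 4 groups of 5 libraries, 152 sets of values were examined for a single library far from the rest, and 8 had one, where chance gives about 1 in 20. Control replicate 6 at 3 months was highest of its group for Cacna2d1, at 384 CPM against 303 to 326, and for Kcnh7, at 187 against 141 to 150. Control replicate 9 at 3 months was highest for Kcna5, at 4.60 CPM against 3.11 to 3.30. KI replicate 6 at 3 months was highest for Cacna1i, at 119 CPM against 89.7 to 97.1, and KI replicate 3 at 3 months was lowest for Cacna2d2, at 44.4 CPM against 55.3 to 57.7. KI replicate 5 at 10 months, the library with Xist counts, was lowest for the inward rectifier Kcnj9, at 135 CPM against 189 to 205, and for the sodium-activated channel Kcnt1, at 154 against 196 to 211. KI replicate 7 at 10 months was highest for Kcna3, at 5.94 CPM against 2.99 to 3.70. Of the members called with age, Cacna2d2 and Kcna3 are among these.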

How the results depend on the processing

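No result changed direction among 902 values of 37 named results under the alternatives: 812 kept their side of the threshold, 65 calls were lost and 25 gained. Members called with age in control, 2 as reported, were 1 without a low-count filter, with the replicate block, with the thalamic or the choroid plexus score, and without control replicates 8 and 10 at 3 months (chosen after seeing the data). They were 6 with DESeq2, 12 with limma-voom (with library quality weights), 8 with 1 surrogate variable and 4 at a threshold of 0.10. Leaving out 1 library gave 1 to 4, with 1 without control replicate 6, 7 or 8 at 3 months or replicate 7, 8, 9 or 10 at 10 months, and 4 without replicate 10 at 3 months. Members called with age in KI, 12 as reported, were 29 with limma-voom, 24 with 1 surrogate variable, 7 with only the KI libraries and 2 with the thalamic score. Leaving out 1 library gave 8 to 17, with 8 without KI replicate 4 at 3 months or replicate 3 at 10 months, 17 without KI replicate 3 at 3 months and 13 without KI replicate 5 at 10 months. Members called by genotype at 10 months, 0 as reported, were 2 with limma-voom and 1 with a minimum of 1 CPM, DESeq2, 1 surrogate variable or a threshold of 0.10, and 0 to 1 when 1 library was left out, with 1 without KI replicate 7. Of the fits that left out 1 library, Kcna6 in control kept its call in those without replicate 9 or 10 at 3 months. In KI, Cacna2d2 kept its call without replicate 3 at 3 months or 7 at 10 months, Kcnf1 without 3 at 3 months or 4 at 10 months, and Scn3a without 6 or 7 at 3 months or 5 or 7 at 10 months, while Kcnc2 lost it without 3 or 4 at 3 months or 3 at 10 months. Averaged over ages, DESeq2 and 1 surrogate variable each called 1. At 3 months and for the interaction 0 were called under every alternative run. The cause of these moves was not tested. The share of all genes called was not counted under the alternatives. Whether the moves are particular to channel genes is therefore not known.

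The replicate block, on numbers that did not pair the libraries, called 1 member with age in control, 9 in KI and 0 in the other comparisons, and 1 of 20 libraries correlated best with its own number. RLE scaling moved the median of all genes to between -0.02 and 0.01. It turned the sign of 1 member with age in control (Kcnab2), 1 with age in KI (Kcnj3), 4 by genotype at 10 months and 1 in the interaction, each within 0.01 of 0, and of no class median with age. Depth limits the rare members: 8 of 117 have a mean below 1 CPM, and their larger standard errors leave small differences undetectable at this depth.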

Other observations

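The channel genes differed in how tightly libraries of a group held together. Over the 109 members with a mean of at least 1 CPM, the coefficient of variation within groups had a median of 13.4%, against 11.7% over 15456 genes at that level. Kcna6, a Kv1 pore, was the tightest at 2.26%, followed by the sodium channel subunit Scn2b at 3.57%, while the calcium channel subunit Cacnb2 stood at 4.46%. The widest after Kcne2 were the muscle calcium pore Cacna1s at 47.5%, the glial sodium channel relative Scn7a at 40.7%, the leak channel Kcnk12 at 36.0% and the sensory neuron pore Scn9a at 34.3%. A difference of -0.14 on the log2 scale was called for Kcna6 in control, and one of -1.36 for Kcne2 in KI was not (adjusted p = 0.520 by edgeR).

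At 10 months Kcna6 ran from 120 to 125 CPM in control and from 129 to 135 in KI, without overlap, and differed by 0.10 ± 0.04 (log2, SE, adjusted p = 0.517 by edgeR).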
